A study of Mus musculus with 4 samples.

Results

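Retinoic acid synthesis and receptor genes were followed in mouse gastric organoids, cultures of stomach epithelium that grow as small structures. The 9 genes were taken by symbol, as makers, carrier and receptors of retinoic acid, out of 45777 genes in the files: Aldh1a1, Aldh1a2, Aldh1a3, Rdh10, Dhrs3, Rara, Rarb, Rarg and Crabp2. All 9 were found and all 9 passed the filter on low counts. Total RNA was sequenced from 4 libraries, 2 of each genotype. The Control libraries came from organoid lines CPE and CPG, knocked out for Cdh1 (E-cadherin) and Trp53 (p53), and the Smad4 Knockout libraries from lines CPS1 and CPS4, knocked out for Cdh1, Trp53 and Smad4, the shared partner of the SMAD proteins. All lines therefore lacked the first pair of genes by label, and no library of intact organoids was analysed here. All were moved, the day after plating, to medium with B27 and N2 but no serum and no L-WRN conditioned medium, and were grown in it for 2 days. The labels do not say whether the B27 held vitamin A, if different animals gave rise to the lines, or if Control lines were the parents of the Smad4 Knockout lines. Each line gave 1 library, so the p-values measure only the spread between these libraries.

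Retinoic acid is a hormone-like product of vitamin A. Retinol is first oxidised to retinaldehyde, a step that Rdh10 carries out and that Dhrs3 runs backwards, and the retinaldehyde dehydrogenases of the Aldh1a family then make retinoic acid from it irreversibly. Crabp2 carries retinoic acid to the nuclear receptors Rara, Rarb and Rarg, which bind DNA as dimers with RXR receptors, often at a direct repeat of a short core motif with a 5-base spacer. Rarb, Dhrs3 and the retinoic acid degrading enzyme Cyp26a1 are textbook targets of the receptors, and the embryonic foregut is patterned in part by this signal.

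Promoter sequence was read from a RefSeq table of GRCm38.p6, the build the submitters' processing notes call mm10, because Rarb was the member with the smallest p-value between the genotypes. The table held 13 start sites of 6 members (Aldh1a1, Aldh1a2, Dhrs3, Rara, Rarb and Rarg). Windows of 300 bases, 250 before and 50 after each start, were searched on both strands for the core motif AGGTCA and for its variants, namely AGTTCA, then also GGGTCA and lastly also GGTTCA. By their letters, matches on opposite strands cannot overlap. At least 1 core motif lay in 5 of the 13 windows, and 43.7% of all 32851 windows of that length held one. A direct repeat of these core motifs with a spacer of 5 bases lay in 1 of the 13, that of Rarb, and in 32 of the 32851 (0.0974%). Spacers of 1 and 2 bases gave 0 of the 13, against 0.222% and 0.268% of all windows, and the palindrome GTCTAGAC, a SMAD-binding sequence, was in none of the 13 and in 0.213% of all windows. Among the retinoid pathway genes searched, the Cyp26a1 window also held the repeat with a spacer of 5. Dhrs3, also named above as a textbook target, held no core motif in any of its windows. The 250 bases before the start are shown for Rarb (minus strand, chr14:16575477-16575726) and Cyp26a1 (plus strand, chr19:37697558-37697807), which hold the repeat, and for Aldh1a2 (plus strand, chr9:71215539-71215788), the member with the largest fold difference, which holds no core motif. Each reads 5′ to 3′ along the gene, and capitals mark the core motifs.
Rarb: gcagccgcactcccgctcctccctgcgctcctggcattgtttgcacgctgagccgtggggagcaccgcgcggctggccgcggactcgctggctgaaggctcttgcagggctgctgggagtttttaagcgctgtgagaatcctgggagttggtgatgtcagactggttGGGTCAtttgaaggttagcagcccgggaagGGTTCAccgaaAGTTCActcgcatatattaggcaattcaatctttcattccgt
Cyp26a1: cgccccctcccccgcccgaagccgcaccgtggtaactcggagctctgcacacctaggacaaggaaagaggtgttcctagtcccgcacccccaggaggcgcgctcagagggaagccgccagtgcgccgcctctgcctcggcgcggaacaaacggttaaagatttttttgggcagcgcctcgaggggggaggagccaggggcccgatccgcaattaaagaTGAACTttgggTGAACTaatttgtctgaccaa
Aldh1a2: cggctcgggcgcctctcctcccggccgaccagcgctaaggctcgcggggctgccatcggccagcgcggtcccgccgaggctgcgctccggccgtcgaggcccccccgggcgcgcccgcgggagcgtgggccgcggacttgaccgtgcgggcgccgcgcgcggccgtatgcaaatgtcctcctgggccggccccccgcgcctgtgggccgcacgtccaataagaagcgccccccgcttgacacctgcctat
The Rarb repeat runs from 53 to 37 bases before the start as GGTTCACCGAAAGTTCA, and the Cyp26a1 repeat, on the opposite strand, from 32 to 16 bases before it. The Rarb start lies inside the span of the gene and is the only one in the table. The Aldh1a2 stretch is 77.6% G and C with 40 CpG dinucleotides, against 58% and 16 for Rarb. These matches describe letters only, and binding was not measured. Rarb and Cyp26a1 are textbook targets, and the variants searched include those that form their repeats. The shares set beside them are therefore not a test.

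The libraries held from 85649781 to 99845702 counts. Smad4 itself was at 94.5 and 103 CPM (the count scaled to the TMM-adjusted library size) in Control and 54.4 and 52.9 CPM in Smad4 Knockout organoids, so transcript remained. Cdh1 ranged from 26.02 to 44.1 CPM and Trp53 from 4.69 to 6.98 CPM over the libraries. Of 21 gastric epithelial markers 18 were tested, led by Krt8, Krt18 and Krt19, each at 1599 CPM or more in all libraries, while the chief cell markers Pgc and Cblif and the parietal cell subunit Atp4b had 0 counts throughout. The other parietal cell subunit, Atp4a, lay between 3.54 and 4.02 CPM. The mucous cell genes Tff1 (log2 fold change 1.19), Tff2 (0.99) and Gkn1 (2.24) were higher in both Smad4 Knockout libraries. DESeq2 called these 3 of the list (adjusted p = 0.0219, 0.0352 and 0.00165), against 0.708% of all genes, but edgeR did not. Gkn1 measured 2.95 and 2.54 CPM in Control and 5.87 and 19.98 CPM in Smad4 Knockout organoids. Muc5ac (log2 fold change 0.62), Gkn2 (1.15) and Gkn3 (1.15), of the same list, overlapped between genotypes. Mitochondrial genes took from 0.941% to 1.48% of the counts and ribosomal RNA from 0.242% to 0.562%, both highest in Smad4 Knockout 2. With edgeR's quasi-likelihood test and Benjamini-Hochberg adjustment, 0 of 18115 genes (0%) passed an adjusted p of 0.05.

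Rdh10 stood far above the other members in level. On the TPM scale, which corrects for gene length and so allows genes to be compared, Rdh10 was at 501.6 and 507.5 for the Control pair and 491 and 400.03 for the Smad4 Knockout pair, higher than 98.7% of the tested genes. Every Rdh10 value exceeded every value of the other 8 members. Below it came Aldh1a1 (mean of the 4 libraries 22.3 TPM), Aldh1a2 (21.7), Rarg (18.4), Dhrs3 (15.5), Rarb (12.4), Rara (8.99), Aldh1a3 (6.03) and Crabp2 (4.30). Each neighbouring pair in that order overlapped over the 4 libraries, except Rdh10 and Aldh1a1. The upper gene of the pair was nonetheless higher in each of the 4 libraries for Dhrs3 over Rarb and for Rara over Aldh1a3.

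**Figure D1:**
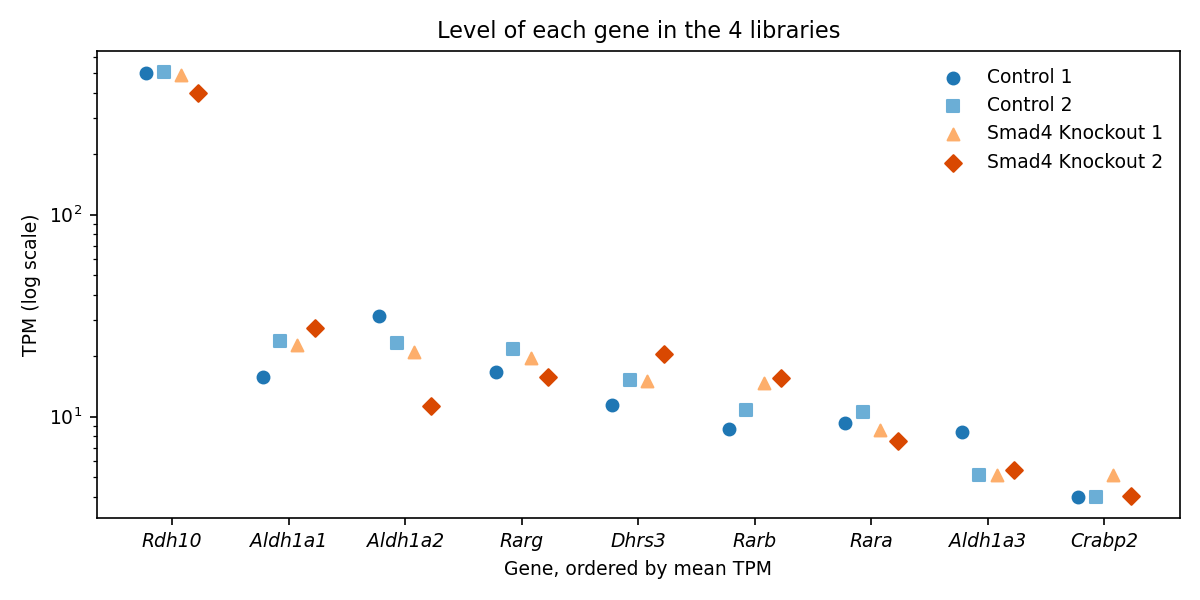
TPM (vertical axis, log scale) of the 9 genes (horizontal axis, ordered by mean TPM), with 1 point per library and no error bars. Rdh10 sits at 400.03 TPM or above in every library, while the other 8 genes all lie below 32.

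Between the genotypes 0 of the 9 genes passed the test, against 0% of all genes tested. Without adjustment for the number of genes, 4 of the 9 had p under 0.05 (44.4%, against 6.36% of all genes). Rarb and Dhrs3 were the higher ones (2 of 9, against 3.33% of all genes) and Aldh1a2 and Rara the lower ones (2 of 9, against 3.04%). Dhrs3 and Rara lay close to that limit, with unadjusted edgeR p of 0.0492 and 0.049. With limma on log2(TPM + 1) their unadjusted p was 0.102 and 0.14, and with DESeq2 it was 0.034 and 0.0708. The count of members under that limit was 1 without Control 1 and 1 without Smad4 Knockout 2, and it was 3 without Smad4 Knockout 1 and 4 without Control 2. It was 3 with RLE size factors, with DESeq2 and without the filter, and 2 with limma at either pseudocount. On the CPM scale the genotypes did not overlap for 5 of the 9 (55.6%, against 36.9% of all genes): 2 higher (18.2% of all genes) and 3 lower (18.6%), namely those 4 and Rdh10. The median log2 fold change of the 9, Smad4 Knockout over Control, was -0.14, with 4 above and 5 below 0, and that of all tested genes was -0.00. DESeq2 also called 0 of the 9, while it called 132 of 18657 genes (0.708%). With edgeR without Smad4 Knockout 1 the calls were 92 of 19190 genes (0.479%) and without Control 1 they were 1 of 19107 (0.00523%), with 0 of the 9 in each.

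**Figure D2:**
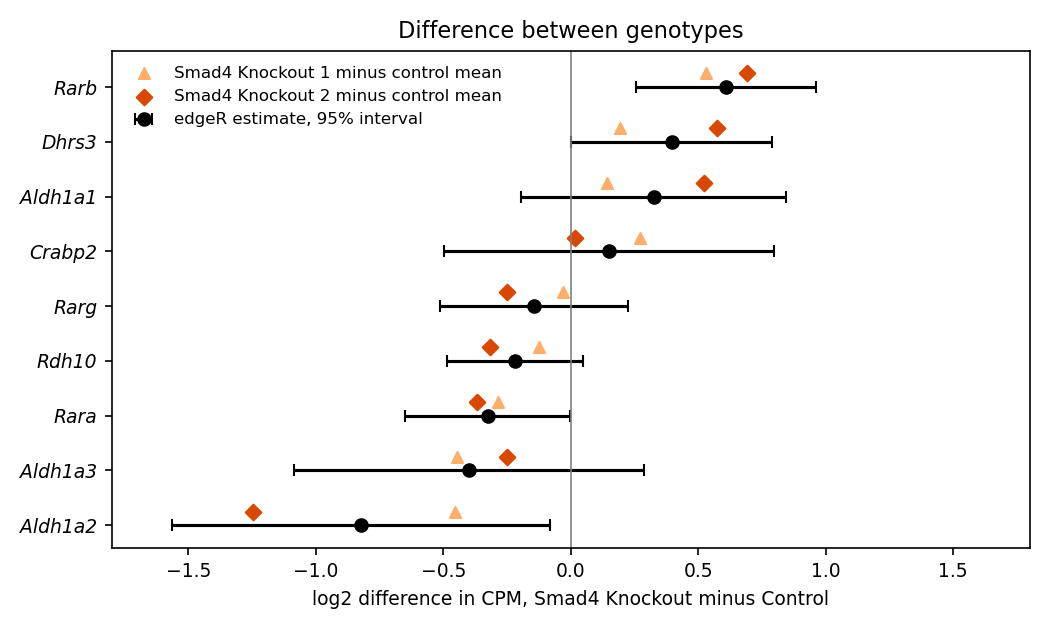
Log2 difference in CPM between genotypes (horizontal axis) for each gene (vertical axis). Black points and bars are edgeR's estimate with its 95% interval over 2 libraries a genotype, and coloured points are each Smad4 Knockout library minus the mean of the controls. The intervals of Rarb and Dhrs3 lie above 0 and those of Aldh1a2 and Rara below it, before any adjustment for the number of genes. Those of Dhrs3 and Rara exclude 0 only narrowly.

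Rdh10 (gene ID 98711, chromosome 1, 16105882 to 16132550 in GRCm38), the retinol oxidising enzyme, measured 739.8 and 700.2 CPM in Control and 659.7 and 577 CPM in Smad4 Knockout organoids. Both knockout values were lower than both control values. The group means were 719.98 ± 28.03 CPM and 619 ± 58.1 CPM (SD, n = 2 each), a level of 85.9% of the control. The log2 fold change was -0.22 (SE 0.11, 95% interval -0.48 to 0.05, edgeR adjusted p = 0.832), and -0.11 without Smad4 Knockout 2. Dhrs3 (gene ID 20148, chromosome 4, 144892534 to 144928209), which turns retinaldehyde back into retinol, measured 25.2 and 27.04 CPM in Control and 29.8 and 38.8 CPM in Smad4 Knockout organoids. Both knockouts lay above both controls, Smad4 Knockout 1 by little. The log2 fold change was 0.40 (SE 0.16, 95% interval 0.0020 to 0.79, edgeR adjusted p = 0.785), and 0.20 without Smad4 Knockout 2.

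The Dhrs3 separation depended on the unit. On the TPM scale Dhrs3 was at 11.4 and 15.1 for the Control pair and 15.04 and 20.3 for the Smad4 Knockout pair, so Control 2 lay just above Smad4 Knockout 1 and the genotypes overlapped. The files list 9 transcripts for the gene, and the length implied by count over FPKM, relative to Control 1, was 0.867 in Control 2, 0.988 in Smad4 Knockout 1 and 0.887 in Smad4 Knockout 2. For the other 8 members that ratio lay between 0.994 and 1.01. The ratio of Rdh10 to Dhrs3 in TPM, which sets the forward enzyme beside the reverse one, was 43.9 and 33.5 for the Control pair and 32.7 and 19.7 for the Smad4 Knockout pair. Control 2 and Smad4 Knockout 1 were nearly equal in it.

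Among the retinaldehyde dehydrogenases, Aldh1a2 had the largest difference of any member. Aldh1a2 (gene ID 19378, chromosome 9, 71215789 to 71296243), the main retinoic acid producing enzyme of the embryo, measured 45.98 and 31.4 CPM in Control and 27.7 and 16.002 CPM in Smad4 Knockout organoids. Both knockouts were lower than both controls, and Control 2 lay closer to Smad4 Knockout 1 than to Control 1. The means were 38.7 ± 10.3 CPM and 21.9 ± 8.29 CPM (SD, n = 2 each), or 56.5% of the control level. The log2 fold change was -0.82 (SE 0.30, 95% interval -1.56 to -0.08), which did not pass (edgeR adjusted p = 0.741, DESeq2 adjusted p = 0.194). It was -0.47 without Smad4 Knockout 2, -0.52 without Control 1 and -1.27 without Smad4 Knockout 1.

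Aldh1a1 (gene ID 11668, chromosome 19, 20492583 to 20643463), an enzyme common in adult epithelia, leaned the other way. Aldh1a1 measured 20.7 and 29.01 CPM in Control and 27.1 and 35.2 CPM in Smad4 Knockout organoids. The genotypes overlapped, and the log2 fold change was 0.32 (SE 0.21, 95% interval -0.20 to 0.85, edgeR adjusted p = 0.879). It was 0.10 without Control 1 and 0.13 without Smad4 Knockout 2. Aldh1a7, a close relative beside it on chromosome 19, measured 5.23 and 5.41 CPM in Control but 7.15 and 7.32 CPM in Smad4 Knockout organoids (log2 fold change 0.44, SE 0.18). Reads shared between these relatives may have been split by the counting, so both values are uncertain. Aldh1a3 (gene ID 56847, chromosome 7, 66390892 to 66427477) measured 18.4 and 10.5 CPM in Control and 10.2 and 11.7 CPM in Smad4 Knockout organoids. Control 1 stood above the other 3 libraries, which lay within 1.49 CPM of each other. Its log2 fold change was -0.40 (SE 0.28, 95% interval -1.09 to 0.29) and 0.06 without Control 1.

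The makeup of the family in TPM followed from these values. Aldh1a2 made up 56.7% and 44.5% of the summed TPM of the 3 dehydrogenases in the controls and 43.03% and 25.5% in the Smad4 Knockout libraries. Aldh1a1 made up 28.2% and 45.6% for the Control pair and 46.4% and 62.1% for the Smad4 Knockout pair. The leading enzyme was thus Aldh1a2 in Control 1 and Aldh1a1 in Smad4 Knockout 2, with the pair near balance in the other two libraries. The ratio of Aldh1a1 to Aldh1a2 was 0.498 and 1.02 for the Control pair and 1.08 and 2.43 for the Smad4 Knockout pair. The summed TPM was 55.7 and 51.7 for the Control pair and 48.6 and 44.01 for the Smad4 Knockout pair. The smallest two-sided p that exact permutation allows here is 0.333, and these shares carry no test.

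**Figure D3:**
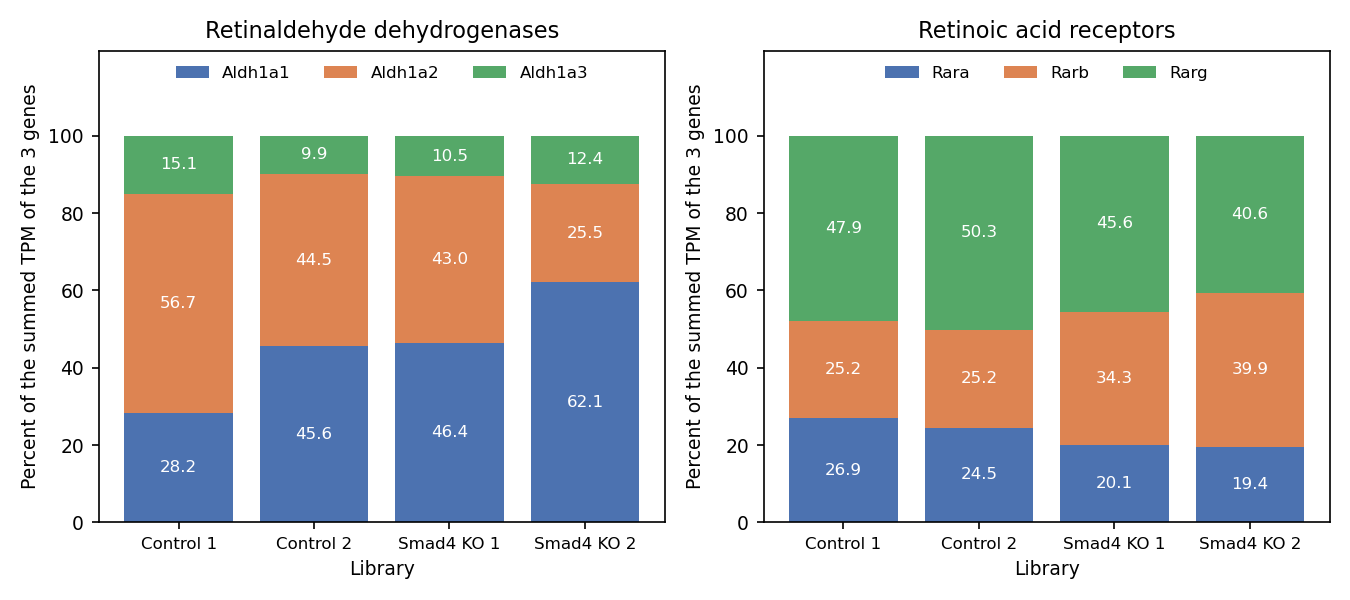
Percent of the summed TPM of the 3 genes of each family (vertical axis) taken by each gene in each library (horizontal axis, KO for Knockout), with no error bars as each bar is 1 library. Aldh1a2 takes from 56.7% in Control 1 to 25.5% in Smad4 Knockout 2, and Rarb takes 25.2% in both controls and 34.3% and 39.9% in the knockouts.

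Rarb had the smallest p-value of the members. Rarb (gene ID 218772, chromosome 14, 16430839 to 17082331), the receptor that is itself induced by retinoic acid, measured 16.8 and 19.6 CPM in Control and 26.2 and 29.3 CPM in Smad4 Knockout organoids. Both knockouts lay above both controls, and the gap between the groups was wider than the distance within either. The means were 18.2 ± 2.02 CPM and 27.7 ± 2.15 CPM (SD, n = 2 each), a 1.52-fold level. The log2 fold change was 0.61 (SE 0.14, 95% interval 0.25 to 0.96), and it did not pass over all genes (edgeR adjusted p = 0.677, DESeq2 adjusted p = 0.0879). It stayed between 0.50 and 0.72 when any 1 library was left out, with an edgeR adjusted p from 0.288 to 0.9998. The 3′ end of Rarb overlaps Top2b on the other strand over 4624 bases (chromosome 14, 16430839 to 16435462, GENCODE M21), and for the strand setting of the counting nothing is given in the sources. Top2b measured 253 and 238 CPM in Control and 249 and 258 CPM in Smad4 Knockout organoids.

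Rara (gene ID 19401, chromosome 11, 98927800 to 98974942), the most widely expressed of the receptors, leaned down. Rara measured 19.2 and 20.3 CPM in Control and 16.2 and 15.3 CPM in Smad4 Knockout organoids. The groups did not overlap and each was tight, at 19.7 ± 0.771 and 15.7 ± 0.649 CPM (SD, n = 2 each). The log2 fold change was -0.33 (SE 0.13, 95% interval -0.65 to -0.0019, edgeR adjusted p = 0.785), with -0.37 to -0.27 when any 1 library was left out. Rarg (gene ID 19411, chromosome 15, 102234938 to 102257522), a receptor prominent in skin and other epithelia, measured 31.3 and 38.02 CPM in Control and 33.7 and 28.98 CPM in Smad4 Knockout organoids. The groups overlapped (log2 fold change -0.14, SE 0.15, 95% interval -0.51 to 0.22), and the value was 0.00 without Control 2.

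In the receptor mix, Rarb took a larger and Rara a smaller share in both Smad4 Knockout libraries than in both controls. Rarb made up 25.2% of the summed receptor TPM in each control and 34.3% and 39.9% in the knockouts, while Rara made up 26.9% and 24.5% against 20.1% and 19.4%. Rarg remained the leading receptor in all 4 libraries, by a narrow margin in Smad4 Knockout 2, where it took 40.6%. The ratio of Rarb to Rara was 0.935 and 1.03 for the Control pair and 1.71 and 2.05 for the Smad4 Knockout pair. The summed TPM of the receptors was 34.5 and 42.9 for the Control pair and 42.9 and 38.8 for the Smad4 Knockout pair, which overlap. These too are given without a test.

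Crabp2 (gene ID 12904, chromosome 3, 87948693 to 87953372), the carrier that hands retinoic acid to the receptors, was the member with the lowest level. Crabp2 measured 2.33 and 2.18 CPM in Control and 2.72 and 2.28 CPM in Smad4 Knockout organoids, from 202 to 235 counts a library. The groups overlapped, with a log2 fold change of 0.15 (SE 0.26, 95% interval -0.50 to 0.80). Leaving out Smad4 Knockout 1 gave 0.02 and leaving out Smad4 Knockout 2 gave 0.28. The interval leaves room for a difference of either sign.

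Over the 9 genes the libraries did not pair by genotype. The root mean square difference of log2 CPM was smallest between Control 2 and Smad4 Knockout 1, at 0.231. It was 0.389 between the controls, 0.356 between the knockouts and 0.717 between Control 1 and Smad4 Knockout 2. The difference from the controls was larger in size in Smad4 Knockout 2 than in Smad4 Knockout 1 for all members but Aldh1a3 and Crabp2. On the log2 scale, against the mean of the controls, Aldh1a2 stood at -0.45 in the first and -1.25 in the second Smad4 Knockout library, and Dhrs3 at 0.19 and 0.57. Rarb, at 0.53 and 0.69, and Rara, at -0.28 and -0.37, were more even between the knockouts.

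The other retinoid pathway genes came from 7 lists holding 92 genes besides the members. Of the 67 tested, 0 passed, and 10 had an unadjusted p under 0.05 (14.9%, against 6.36% of all genes). Of the 10, 5 were higher and 5 lower in the Smad4 Knockout libraries. The lower ones include Lrat and Aldh8a1, which had 0 counts in both knockouts and were too low to compare. The genotypes did not overlap for 10 higher and 11 lower genes, 31.3% of the 67 (against 36.9% of all genes), and the median log2 fold change was -0.02. DESeq2 called 0 of them.

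**Figure D4:**
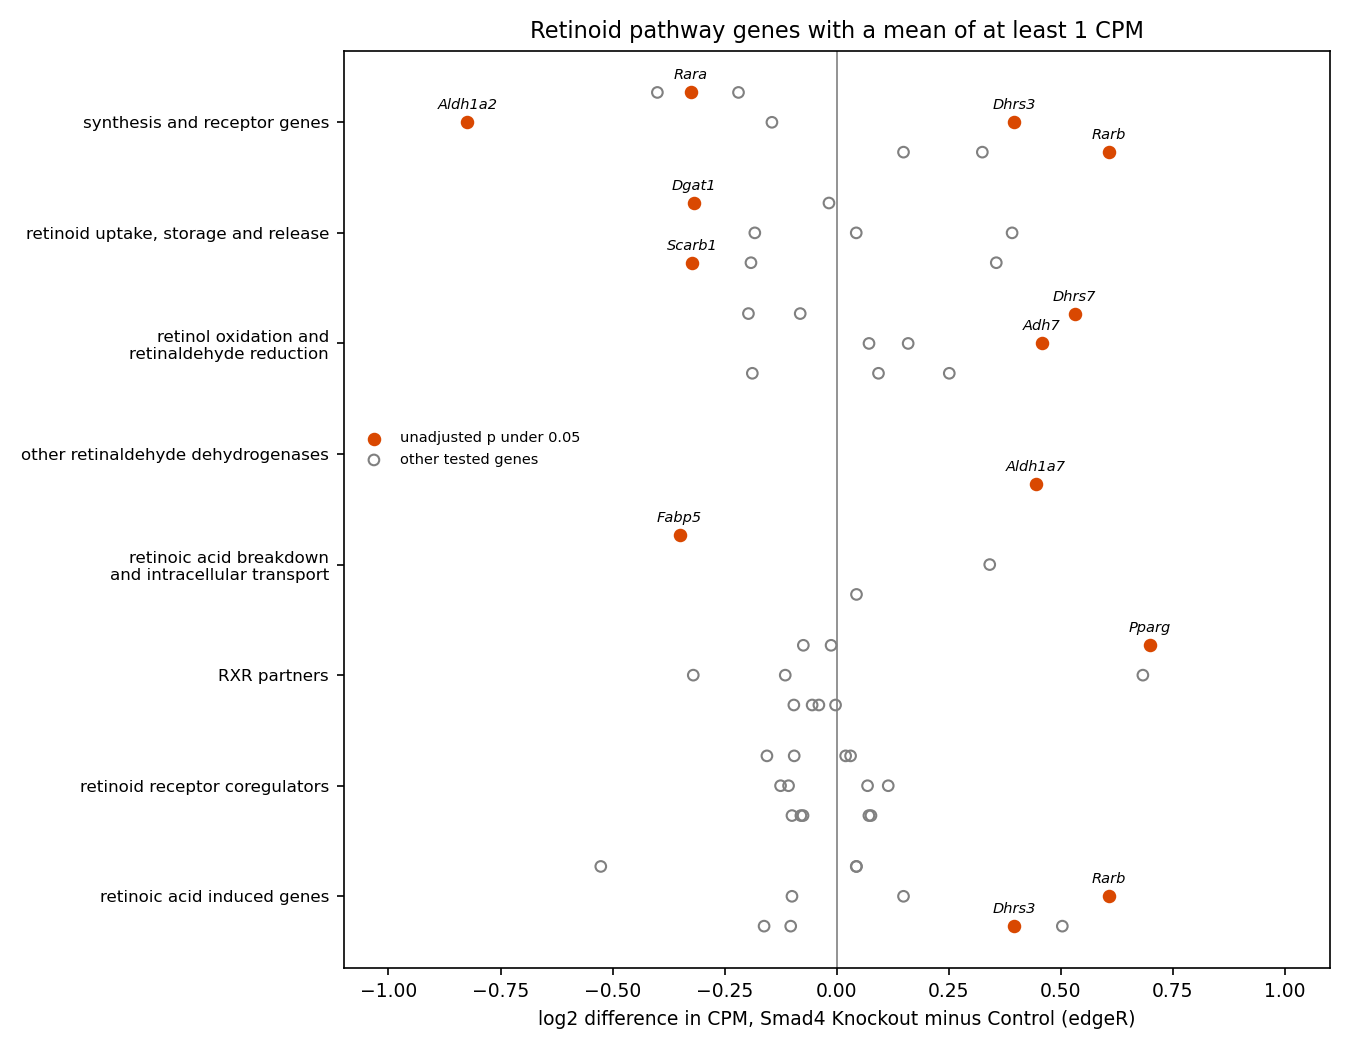
EdgeR's log2 difference in CPM between genotypes (horizontal axis) for the genes reported here of each list with a mean of at least 1 CPM (rows, shifted up and down only to separate points). Named filled points have an unadjusted p under 0.05, and none passes after adjustment. Pparg, at 0.70, lies farthest to the right of them and Aldh1a2, at -0.82, farthest to the left.

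Among genes of uptake and storage 4 of 13 tested had an unadjusted p under 0.05 (against 6.36% of all genes). Of the 4, 1 was higher (3.33% of all genes) and 3 lower (3.04%). Stra6, the membrane receptor that takes up retinol, was the most abundant, with 152 and 203 CPM in Control and 196 and 169.96 CPM in Smad4 Knockout organoids (log2 fold change 0.04, SE 0.16). Scarb1, a lipid and carotenoid transporter, measured 44.3 and 47.9 CPM in Control but 37.8 and 35.8 CPM in Smad4 Knockout organoids (-0.32, SE 0.11), and Dgat1, an acyltransferase that can esterify retinol, 27.1 and 27.3 CPM in Control but 20.5 and 23.05 CPM in Smad4 Knockout organoids (-0.32, SE 0.13). Lrat, the main retinol esterifying enzyme, had 11 counts in each control and 0 in each knockout, too few to read. It was 1 of the 3 lower genes.

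Of the genes of retinol oxidation and retinaldehyde reduction 2 of 15 tested had an unadjusted p under 0.05 (against 6.36% of all genes). Both were higher (against 3.33%). Adh7, the alcohol dehydrogenase of the stomach, measured 37.3 and 40.8 CPM in Control and 50.7 and 56.6 CPM in Smad4 Knockout organoids, with no overlap (log2 fold change 0.46, SE 0.12, edgeR adjusted p = 0.677, DESeq2 adjusted p = 0.145; 0.39 to 0.53 with any 1 library left out). Dhrs7 measured 11.2 and 10.5 CPM in Control but 13.3 and 17.99 CPM in Smad4 Knockout organoids (0.53, SE 0.19, and 0.31 without Smad4 Knockout 2). The most abundant were Akr1b8, an aldo-keto reductase (log2 fold change -0.19), Adh5 (0.09) and Rdh11, a retinaldehyde reductase (0.25), all above 91 CPM in each library. Of the short-chain dehydrogenases in this list, Rdh1, Rdh5 and Rdh9 were below 0.4 CPM in every library. Rdh7, Rdh16, Sdr16c5 and Sdr16c6 had 0 counts, and Dhrs9 lay between 0.214 and 0.764 CPM. Rdh13 lay between 27.8 and 37.8 CPM, Rdh14 between 7.19 and 10.4 CPM and Dhrs4 between 15.1 and 18.3 CPM. The genotypes overlapped for Rdh13, Rdh14 and Dhrs4.

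The other dehydrogenases besides Aldh1a7 were near the floor. Aldh8a1 had 20 and 21 counts in Control and 0 in both knockouts, and Aldh1b1 had 22 and 0 counts against 37 and 49.

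Of breakdown and transport genes Cyp26b1 was the retinoic acid hydroxylase with a level that could be tested. Cyp26b1 measured 5.53 and 5.33 CPM in Control and 5.98 and 5.22 CPM in Smad4 Knockout organoids (log2 fold change 0.04, SE 0.20, but -0.18 with limma on log2(TPM + 1)). Cyp26a1, whose upstream sequence is shown above with the repeat it shares with Rarb, had 19 and 0 counts in Control 1 and 2 but 0 and 5 in Smad4 Knockout 1 and 2, and Cyp26c1 had 0 in all. Fabp5, a fatty acid carrier that also binds retinoic acid, measured 136 and 108 CPM in Control and 99.1 and 91.8 CPM in Smad4 Knockout organoids (-0.35, SE 0.14, and -0.17 without Control 1). For Cyp2s1 the log2 fold change was 0.34 (SE 0.34), while Crabp1 had 0 counts.

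RXR partners and the other receptors that pair with RXR gave 1 of 13 tested genes with an unadjusted p under 0.05. That gene was Pparg, and the share over all genes was 6.36%. Pparg, a lipid-sensing receptor, measured 18.6 and 15.3 CPM in Control and 24.7 and 30.3 CPM in Smad4 Knockout organoids, with no overlap (log2 fold change 0.70, SE 0.17, DESeq2 adjusted p = 0.0573). The obligate partner Rxra lay between 35.4 and 39.3 CPM and Rxrb between 26.99 and 32.1 CPM over the 4 libraries, and Rxrg had 0 counts. Nr2f6 (log2 fold change -0.00), Ppard (-0.32) and Nr1h3 (0.68, SE 0.52) overlapped between genotypes. Nr1h3 was at 1.501 without Control 1 and at 0.17 without Control 2. Among 14 tested coregulators 0 had an unadjusted p under 0.05 (against 6.36% of all genes). Tbl1xr1 and Tbl1x, subunits of a corepressor complex, and Nrip1, a retinoid-induced corepressor, were the most abundant, with log2 fold changes of 0.07, -0.09 and -0.10. Hdac3 had a log2 fold change of -0.16 and Med1 one of -0.13.

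Of 25 genes known to be induced by retinoic acid 14 were tested, and 4 had an unadjusted p under 0.05 (against 6.36% of all genes). Of the 4, 3 were higher (3.33% of all genes) and 1 lower (3.04%). The higher ones included the members Rarb and Dhrs3, already counted above, and the lower one was Lrat, with too few counts to read. Tgm2, a transglutaminase, measured 93.6 and 91.1 CPM in Control and 77.2 and 94.8 CPM in Smad4 Knockout organoids (log2 fold change -0.10). Stra6 and Nrip1, named above and also in this list, overlapped between genotypes. Nrip1 measured 131 and 189 CPM in Control and 180 and 119 CPM in Smad4 Knockout organoids. The Hox genes Hoxa4, Hoxa5, Hoxb1 and Hoxb4 had 0 counts, and the list median was 0.03. In all, 8 of the 14 were above 0 and 6 below.

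Genes with the most similar pattern were sought among 10266 genes averaging 5 CPM or more, by the root mean square difference of centred log2 CPM over the 4 libraries. For Aldh1a2 they were Il1a (0.0772), Pglyrp2 (0.0893) and Medag (0.111), for Aldh1a3 Ptges (0.0782), Stk26 (0.0839) and Fbxo10 (0.0878), and for Rarb Naip6 (0.0374), Impact (0.0401) and Mansc1 (0.0453). Il1a measured 145 and 90.8 CPM in Control and 78.9 and 43.7 CPM in Smad4 Knockout organoids. With only 4 libraries this is a description.

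Aldh1a2 is known from mesenchyme in many tissues, so fibroblast markers were read beside it. Of 12 markers 6 were tested, 4 lower and 2 higher, with a median log2 fold change of -0.72. Pdgfra measured 1.54 and 1.68 CPM in Control and 1.02 and 0.619 CPM in Smad4 Knockout organoids, and Col1a1 was at 0.888 and 1.53 against 0.659 and 0.433 CPM. Fbln1, more abundant than both, measured 17.9 and 22.1 CPM in Control and 22.2 and 22.6 CPM in Smad4 Knockout organoids (log2 fold change 0.16), and Acta2 had a log2 fold change of 0.79. Lum and Pdgfrb had 0 counts in all libraries, Dcn at most 0.0516 CPM and Col1a2 at most 0.185 CPM. The summed level of the list, 488 and 703 CPM against 572 and 309 CPM, was almost all Fn1 and overlapped between genotypes. In bulk RNA fewer cells of a type and less RNA per cell cannot be told apart. Squamous forestomach markers were read beside Rarb. They summed to 136 and 108 CPM in the controls and to 213 and 279 CPM in the knockouts, with 10 of 10 above 0 in log2 fold change. The genotypes did not overlap for 5 of the 10, all higher (18.2% of all genes). Of the 10, 1 had an unadjusted p under 0.05 (6.36% of all genes), namely Krt4 (log2 fold change 1.11, DESeq2 adjusted p = 1.15e-06). The mean was below 1 CPM for 5 of the 10, among them Krt5, Trp63 and Sprr3, which did not overlap. Ivl (log2 fold change 0.11) and Krt13 (0.14) overlapped. Krt4 gave most of that sum, and the basal markers Krt5, Krt14 and Trp63 were at most at 1.13 CPM. Krt15, another basal keratin of the list, lay between 0.48 and 2.51 CPM, and its genotypes overlapped. The part of these markers, and of Tff1, Tff2 and Gkn1, in the Rarb difference, and that of the fibroblast markers in the Aldh1a2 difference, was not tested. Endothelial markers summed to at most 5.71 CPM and immune markers to at most 4.43 CPM in any library.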

How the data were processed

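Total RNA of 4 organoid libraries was sequenced with a stranded total RNA kit, per the labels' protocols. Per the submitters' processing notes, the tools were StringTie 2.1.3b, HISAT2 2.1.0, Trimmomatic and bcl2fastq 2.20.0, and the build mm10. For strand setting and filters of the counting nothing is given in the sources used here. The authors deposited 1 file per library with whole-number counts, treated here as estimated counts, and deposited FPKM and TPM values per gene. FPKM served only for the implied transcript length. Control 2 has columns named for its title plus a digit, read as its own. The unused columns number 1, a repeat of the FPKM of Smad4 Knockout 2 within the table of Smad4 Knockout 1. Genotype came from the labels, and replicate numbers follow accession order.

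Counts were tested with edgeR 4.0.16 in R 4.3.3 (quasi-likelihood F-test, TMM, filterByExpr with a minimum count of 10, genotype as the only term) with Benjamini-Hochberg adjustment over 18115 genes. The SE is the absolute log2 fold change over the root of F, and intervals (95%) are not adjusted. The fit was tested on simulated data. Depth ranged from 85649781 to 99845702 counts, and a count of 0 allows up to 3 in a library. Intervals cover the spread between libraries only. Alternatives were RLE size factors, no filter, DESeq2 1.42.0, limma 3.58.1 with trend on log2(TPM + 1) and log2(TPM + 0.1) where 2 libraries or more reached 1 TPM, and leaving out each library, where the lone library of a genotype is assumed to vary like the other genotype.

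All 161 listed gene names matched. The members, lists and naming rule were chosen with earlier results of these data known. The rule named all members, and per pathway list the 3 genes with the highest mean CPM and the 3 with the smallest p at a mean of at least 1 CPM. Likeness was sought for the 3 members that varied most. Genes with 0 or few counts and further gastric, fibroblast, squamous and Hox genes were named after their values were seen. So were Rdh13, Rdh14, Dhrs4, Dhrs9, Top2b and Muc6. Coordinates are RefSeq's on GRCm38. List counts include a few genes that are not reported by name here.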

Additional observations from a re-analysis of the deposited data

How the results depend on the processing

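The count of called genes was 0 with edgeR, with 1153 at an unadjusted p under 0.05, and 132 with DESeq2. When each library was left out it ranged from 0 to 92, with 92 of 19190 (0.479%) without Smad4 Knockout 1 and 1 of 19107 (0.00523%) without Control 1. It was 0 with RLE size factors, without the filter and with limma on TPM at either pseudocount. In all of these alternatives 0 of the 9 members were called. Smad4 was called by DESeq2 (-0.88, DESeq2 adjusted p = 4.9e-08). Of 81 alternative values of the members 79 kept their direction. The exceptions were Aldh1a3, between -0.75 and 0.0641 as libraries were left out, and Rarg, from -0.28 to 0.0018. Their cause was not tested, beyond that each alternative holds 1 library fewer. Of the other named genes Nr2f6, near 0 in every fit, turned to 0.00071 with RLE, 0.0013 with DESeq2, 0.0091 without the filter and 0.0216 and 0.0218 with limma, and Cyp26b1 to -0.18 and -0.29 with limma at the pseudocounts of 1 and 0.1. Over the libraries left out the log2 fold change ranged from -0.0396 to 0.0432 for Nr2f6, -0.0576 to 0.15 for Cyp26b1, -0.15 to 0.27 for Stra6, -0.11 to 0.69 for Cyp2s1, -0.11 to 0.013 for Rxra, -0.62 to 0.0661 for Ppard, -0.43 to 0.18 for Nrip1, -0.26 to 0.0304 for Med1, -0.29 to 0.14 for Tbl1x, -0.0296 to 0.18 for Tbl1xr1, -0.25 to 0.0379 for Tgm2 and -0.46 to 0.054 for Trp53. No paired analysis was possible because the replicate numbers are only an order of accession. Depth did not limit the members, the lowest of which had 202 counts, while Lrat, Aldh8a1 and Cyp26a1 were too low to compare.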

Other observations

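Small counts in the retinoid lists included genes listed at 0 in 1 genotype. Aldh8a1 (20 and 21 counts in the controls) and Lrat (11 and 11), and the gastric gland mucin Muc6 (16 and 12), had 0 counts in both Smad4 Knockout libraries. Over all genes in the files, 77 had at least 10 counts in both controls and 0 in both knockouts, and 95 had at least 10 counts in both knockouts and 0 in both controls. A 0 in estimated counts can be an estimate that failed, so these genes are given as values only.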
